A study of Mus musculus with 12 samples.

Results

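The 300 genes described here were those whose transcripts differed most between 4 pools of pre-leukemic mouse thymus. They were taken from the deposited intensities by rank. Of 17829 transcript clusters, the array's unit for a gene, 15618 carried 1 gene symbol, and 9856 of these had a mean log2 intensity of 7 or more over the 4 pre-leukemic arrays. The 300 members, 3.04% of these eligible clusters, were chosen by the highest standard deviation (SD) of log2 intensity over those arrays. They carry 298 distinct symbols, because Actc1 and Nnat are each represented by a pair of clusters. A difference of 1 on the log2 scale is a 2-fold difference in intensity.

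The pre-leukemic thymus came from female mice of the sdl model at 21 days of age with genotype Mcm4 (D573H/+), that is, with a substitution in 1 copy of Mcm4, which encodes part of the replicative DNA helicase. Wild-type thymus, Mcm4 (+/+), was taken from females of the same model at the same age. Thymic tumors came from moribund females with genotype Mcm4 (D573H/+), so age, genotype and disease all separate tumors from wild type. Each group held 4 pools of 3 organs, and each pool was read on 1 array. A pool mean hides how its 3 organs differed, and the pools of a group are the only replicates.

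The thymus is an encapsulated organ in which T cells mature on a scaffold of epithelium. Its lobes lie in the chest against the heart and great vessels, are wrapped in connective tissue and mesothelium, and border on white and brown fat. Blood passes through the organ, and young mice still hold brown fat in the chest, where heat is produced by uncoupled respiration. Mature T cells collect in the thymic medulla before they leave. In RNA from a whole organ, fewer cells of a type and less RNA per cell cannot be told apart.

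The pre-leukemic pools carried the transcripts of a thymus. Cd8a, the co-receptor of cytotoxic and immature T cells, lay at 12.75 to 12.91 in log2 intensity, and Prss16, a protease of the cortical epithelium, at 11.92 to 12.20. Mcm4 lay at 10.72 to 10.92 in the pre-leukemic and at 10.64 to 10.78 in the wild-type pools, and ranked 7209 by SD among the eligible clusters. Arrays of 1 group correlated across clusters at 0.9848 to 0.9913 in the pre-leukemic, 0.9904 to 0.996 in the wild-type and 0.9835 to 0.9903 in the tumor group. The interquartile range of log2 intensity was 2.75, 2.56, 3.00 and 3.07 on pre-leukemic arrays 1 to 4, and 2.84 to 3.08 on the wild-type arrays. Pool 2 thus had the narrowest range of the 8. With quantile normalization over the 12 arrays, 277 of the 300 members stayed among the 300 of highest SD. The part of the narrow range in single results was not tested.

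Member SDs ran from 0.480 to 1.664 with a median of 0.612, against 0.142 for all eligible clusters. These values chose the members and are a description. The highest pool exceeded the lowest by 1.94-fold to 10.6-fold, with a median of 2.57-fold, and 296 members differed by 2-fold or more. In the wild-type pools, which the ranking did not use, the median SD was 0.250 for members and 0.076 for eligible clusters. Of the members, 159 (53.0%) were also among the 300 with the highest wild-type SD, and 69 were among the 300 with the highest tumor SD. The genes that varied between pre-leukemic pools thus also varied more than other genes between wild-type pools, over a smaller range. A lower SD in wild type was found for 283 members, but 83.3% of all eligible clusters had one. At the end of the ranking, Elovl6, a fatty acid elongase, and Itih5, an inhibitor family protein of the matrix, were the last members, and Aldh1a2, a retinoic acid-forming enzyme, and Ackr3, a scavenging chemokine receptor, the first genes left out. All had an SD of 0.480, so nothing separates the last members from the first genes left out.

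**Figure D1:**
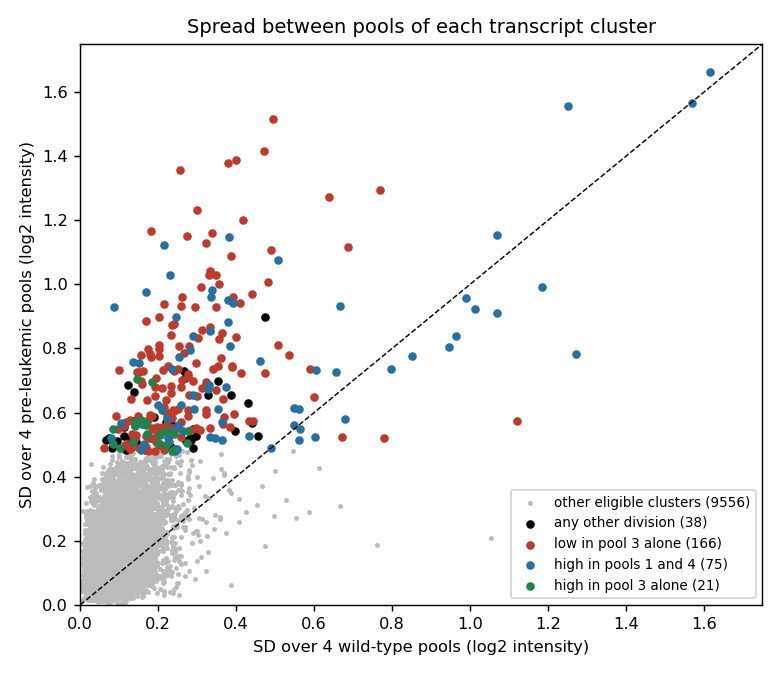
Each point is a transcript cluster, with its SD over the 4 wild-type pools on the horizontal axis and over the 4 pre-leukemic pools on the vertical axis, both in log2 intensity. Coloured and black points are the 300 members by division of the pools, grey points are the other eligible clusters, and the dashed line marks equal SDs. Most members lie above the line, and 17 lie on or below it.

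Among the members, which these same values chose, pool 3 was most often the lowest. It was the lowest pool for 241 members, where it was lowest for 21.1% of eligible clusters, and it lay below all 4 wild-type pools for 235 members, where it did so for 14.6% of eligible clusters. Pools 1 and 3 differed by 2-fold or more in 223 members and pools 3 and 4 in 232, whereas pools 1 and 4 differed so in 3. Pool 2 lay between, with 89 such members against pool 3 and 69 against pool 4. Between pairs of wild-type pools the number was 8 to 26, and between pairs of tumor pools 19 to 54. Ranking by pre-leukemic SD favours larger numbers in that group, so these counts cannot compare the groups. The first of 3 principal components over the 4 pools held 85.1% of the members' variance, and the others held 11.4% and 3.51%. Over all clusters pool 3 correlated with the others at 0.9853 to 0.9863, below the 0.9913 and 0.9907 of pool 1 with pools 2 and 4. Pools 2 and 4 had the lowest correlation, 0.9848.

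Dividing the 4 pools at the largest gap in each member's ordered values gave 3 common patterns. In 166 members (55.3%, against 10.4% of eligible clusters) pool 3 alone was low. In 75 (25%, against 3.53%) pools 1 and 4 were high and pools 2 and 3 low. In 21 (7.0%, against 17.8%) pool 3 alone was high. The remaining 38 fell into 8 other divisions. Among the 166, median deviations from the wild-type mean were 0.46, -0.07, -0.87 and 0.47 in pools 1 to 4, and pool 3 lay below the wild-type range for 163, pool 1 above it for 125 and pool 4 above it for 130. Of all eligible clusters, 14.6% lay below the range in pool 3, 34.3% above it in pool 1 and 31.0% above it in pool 4. Among the 75 they were 0.46, -0.47, -0.81 and 0.46. Among the 21 they were -0.54, -0.96, 0.26 and -0.80, with pool 3 above the wild-type range for 15 and pool 4 below it for all 21. Of eligible clusters, 40.4% lay above the range in pool 3 and 26.2% below it in pool 4.

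**Figure D2:**
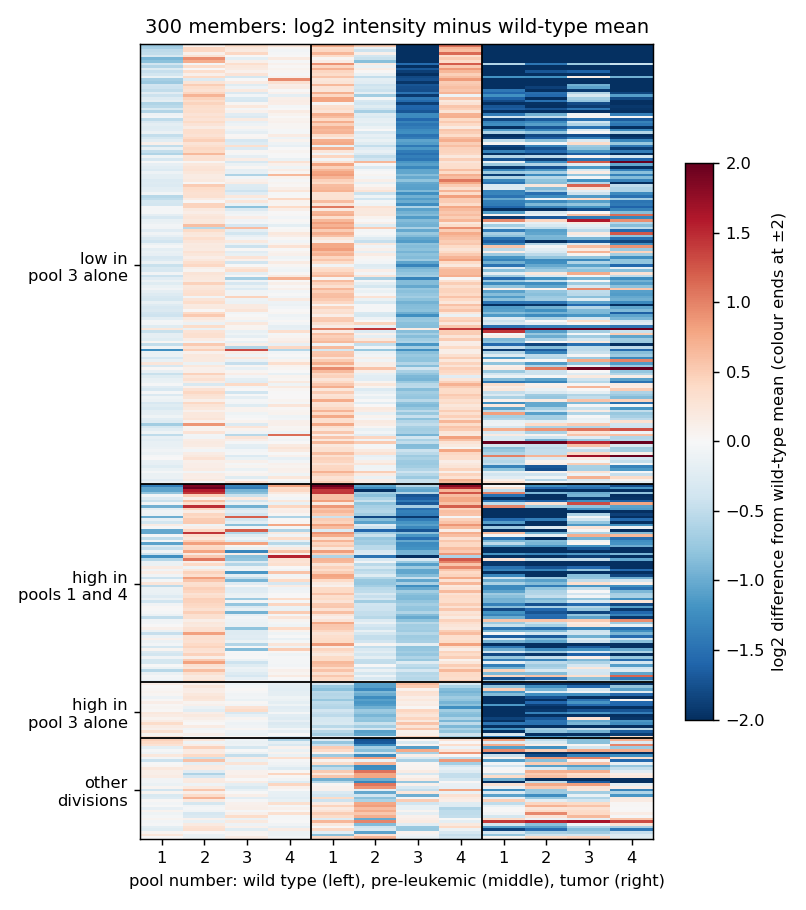
Rows are the 300 members in the 4 groups of divisions, and columns are the 12 pools. Colour is log2 intensity minus the member's wild-type mean, red above and blue below, with the colour ending at 2 in either direction. The pre-leukemic pools 1 and 4 are mostly red and pool 3 mostly blue in the 166 and 75 members of the first 2 groups, and the tumor pools are blue for most members.

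Fat genes were the largest named group. Of 42 eligible genes on a list of adipocyte genes, 31 were members, and all 42 were lowest in pool 3, as were 16 of 18 on a list of brown fat genes, 7 of them members. The mean log2 intensity of the 42 was 9.47, 9.08, 8.08 and 9.60 in pre-leukemic pools 1 to 4, and 8.81 to 9.28 in the wild-type pools. Pool 3 lay under every wild-type pool and pools 1 and 4 above them. Of the 31 members, which count Nnat by both its clusters, 28 were low in pool 3 alone.

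Ucp1, the uncoupling protein through which brown fat makes heat, was at 11.11, 10.86, 8.15 and 11.46 in pre-leukemic pools 1 to 4, and at 9.63, 10.46, 10.72 and 10.60 in wild-type pools 1 to 4. Cox8b, a subunit of cytochrome oxidase of brown fat and muscle, was at 11.47, 10.94, 8.65 and 11.78, against 10.42 to 11.50 in wild type. Pool 3 was low for both, and the other 3 pools differed from each other by less than 1. Fabp3, a fatty acid carrier of heart and brown fat, was at 8.77, 8.29, 6.30 and 9.24, and Pdk4, a kinase that restrains glucose oxidation, at 9.87, 8.90, 7.30 and 10.09. Cidea, a lipid droplet protein of brown fat, was at 9.51, 8.97, 7.03 and 9.61. These 5 genes had SDs of 1.200 to 1.516, and 0.418 to 0.768 in wild type.

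Adipoq, which encodes the hormone adiponectin, was at 10.21, 9.37, 7.37 and 10.40, against 9.27, 10.20, 9.97 and 9.73 in wild type. Its SD was 1.387 over pre-leukemic and 0.400 over wild-type pools. Car3, a carbonic anhydrase abundant in fat and muscle, was at 12.76, 12.05, 9.90 and 12.77. Gpd1, which makes the glycerol backbone of stored fat, was at 10.94, 10.37, 8.28 and 11.40, and Agpat2, an enzyme of triglyceride synthesis, at 11.01, 10.27, 8.56 and 11.32. Each had its gap between pool 3 and the other 3 pools. Thrsp, a regulator of fat synthesis, and Cidec, a lipid droplet protein, spread by 5.85-fold and 5.89-fold between highest and lowest pool, and Dgat2, which completes triglycerides, by 5.57-fold. Pparg, the transcription factor that drives fat cell formation, was at 9.17, 8.90, 7.71 and 9.32, and Scd1, a fatty acid desaturase, at 12.10, 10.87, 9.89 and 12.27. Among these genes Scd1 alone had pool 2 nearer to pool 3 than to the high pools.

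The promoter window of Adipoq is printed because Adipoq has the highest SD on the adipocyte list. It runs from 250 bases before the RefSeq start of the gene to 50 bases after it (GRCm38.p6, chr16:23146286-23146585, plus strand), and capitals mark CCAAT in either orientation.
Adipoq: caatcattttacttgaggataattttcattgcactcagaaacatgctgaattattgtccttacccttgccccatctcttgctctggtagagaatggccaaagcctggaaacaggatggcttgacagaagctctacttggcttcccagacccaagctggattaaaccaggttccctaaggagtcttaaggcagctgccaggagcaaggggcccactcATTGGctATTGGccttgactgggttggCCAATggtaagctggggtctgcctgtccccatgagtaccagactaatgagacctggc
Of 30 member symbols on the list, 20 matched a RefSeq promoter, with 25 windows. CCAAT was found on either strand in 12 windows (48.0%), against 37.4% of 32851 windows of the same length. The DR1 element, the direct repeat bound by the product of Pparg with its partner, was searched on both strands. It was in none of the 25 and in 0.0396% of all windows. It is too rare for 25 windows to show a lack of it.

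Connective tissue genes had the same low pool as the fat genes. Of 40 eligible genes on a list of fibroblast and matrix genes, 26 were members and 38 were lowest in pool 3. Their mean was 9.37, 8.78, 8.05 and 9.20 in pre-leukemic pools 1 to 4 and 8.77 to 9.10 in wild type, so pool 3 was below and pools 1 and 4 above the wild-type pools. Serping1, the inhibitor of the first complement component, was at 11.41, 10.38, 9.05 and 11.45, and Dpt, a matrix protein that organises collagen fibres, at 10.23, 9.17, 7.88 and 10.12. Ogn, a small leucine-rich proteoglycan, was at 8.88, 7.47, 6.57 and 8.93. Pool 2 lay nearer to pool 3 than to the others for Ogn but not for Serping1 and Dpt. Other structural genes were also lowest in pool 3: Sparc, a matrix glycoprotein, was at 12.04, 11.33, 10.10 and 11.97, Fn1, fibronectin, at 11.22, 10.29, 9.33 and 11.32, and Dcn, the proteoglycan decorin, at 12.54, 11.81, 11.02 and 12.61. Col1a1, a chain of type I collagen, was at 10.24, 9.50, 8.58 and 9.65.

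Surface and vessel genes followed the same order. On the list of mesothelium, nerve and other neighbouring cells, 5 of 10 eligible genes were members, and its mean was 8.52, 8.07, 7.54 and 8.34. Upk3b, a membrane protein of mesothelium, was at 10.04, 9.09, 8.07 and 10.03, against 9.11 to 9.60 in wild type. Upk1b, a tetraspanin found in urothelium and mesothelium, was at 8.94, 7.89, 7.02 and 8.95, with an SD of 0.928, but its wild-type SD was 0.087. Lrrn4, a leucine-rich repeat protein, was at 9.28, 7.93, 7.58 and 9.14. On the endothelium list only 3 of 18 eligible genes were members, while pool 3 lay below all wild-type pools for 16 of the 18, against 14.6% of eligible clusters. Cav1, the coat protein of caveolae in endothelium and fat, was at 10.48, 9.73, 8.75 and 10.37, and Lyve1, a hyaluronan receptor of lymphatic vessels, at 8.44, 7.85, 6.75 and 8.32. Emcn, a surface sialomucin of venous endothelium, was at 7.84, 7.85, 7.26 and 8.54. For Emcn pool 4 stood alone as the high one.

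**Figure D3:**
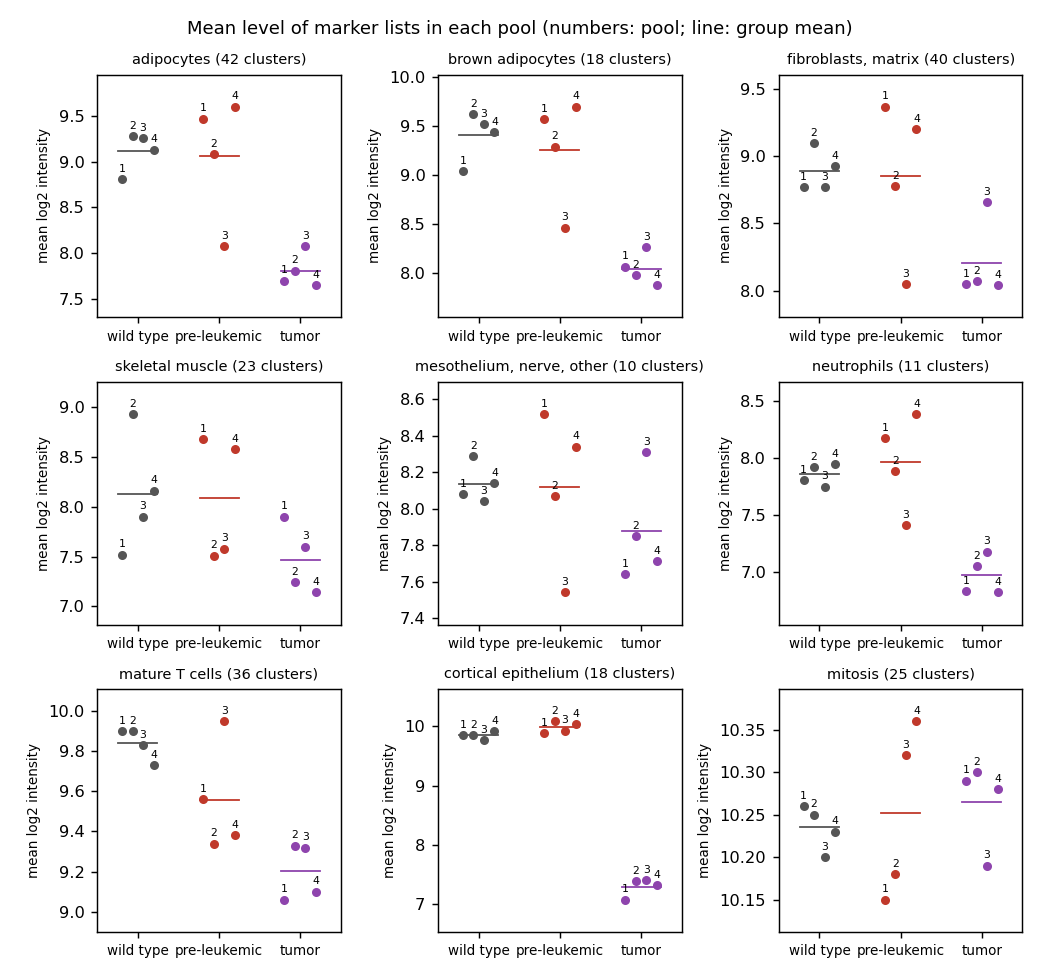
Each panel shows the mean log2 intensity of the eligible genes of 1 list in the 4 pools of each group, with the pool number above each point and a line at the group mean. The fat list spans 8.08 to 9.60 over pre-leukemic pools, and mature T cells are the list shown with pre-leukemic pool 3 at the top. Cortical epithelium spans 9.89 to 10.09 and mitosis 10.15 to 10.36.

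Skeletal muscle genes followed a second pattern. Of 23 eligible genes 15 were members, with Actc1 counted by both its clusters. Of the 15, 14 were high in pools 1 and 4 and low in pools 2 and 3. The mean of the 23 was 8.68, 7.51, 7.58 and 8.58 in pre-leukemic pools 1 to 4, and 7.52, 8.93, 7.90 and 8.16 in wild-type pools 1 to 4. Unlike fat, the muscle list spread as widely between wild-type pools. Median SD of the 15 members was 0.910 over pre-leukemic and 0.989 over wild-type pools. Of the 17 members whose wild-type SD was at or above the pre-leukemic one, 9 were on the muscle list and 3 on the red-cell list.

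Pvalb, the calcium buffer of fast muscle fibres, had the highest SD of all members. It was at 9.68, 6.39, 6.87 and 9.28 in pre-leukemic pools and 6.09, 9.34, 6.14 and 8.27 in wild-type pools, with SDs of 1.664 and 1.614. Acta1, skeletal muscle actin, was at 10.52, 7.56, 7.82 and 10.25, against 7.72, 10.83, 7.40 and 9.17 in wild type. Both were high in pools 1 and 4 of the pre-leukemic group and had their highest wild-type levels in pools 2 and 4, although for Acta1 the largest wild-type gap set pool 2 alone apart. Myl1, a myosin light chain of fast fibres, was at 10.48, 7.07, 8.04 and 9.73, and Tnnt3, fast troponin T, at 9.53, 7.40, 7.52 and 9.36. Atp2a1, the calcium pump of fast fibres, was at 8.71, 7.17, 7.18 and 9.05. Its wild-type SD was 1.183, above its pre-leukemic 0.990.

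Cardiac actin, an atrial myosin chain and myoglobin followed another order in wild type. Actc1, cardiac actin, was at 9.38, 8.01, 7.90 and 9.79 in pre-leukemic pools by its first cluster and at 9.26, 7.95, 7.82 and 9.65 by the second, and in wild type at 8.84, 10.22, 11.01 and 9.20 and at 8.51, 9.95, 10.75 and 8.94. Myl7, an atrial myosin light chain, was at 7.58, 7.16, 6.70 and 8.04, against 6.70, 8.40, 9.24 and 7.36 in wild type. Mb, myoglobin, was at 8.79, 7.66, 7.11 and 8.78, against 7.29, 9.18, 9.17 and 7.80. Their 2 highest wild-type pools were 2 and 3, whereas those of Pvalb, Acta1 and Tnnt3 were 2 and 4. Fabp3, also on the heart list, was at 7.82, 9.66, 8.53 and 8.91 in wild type, with pools 2 and 4 the highest. In the pre-leukemic group all of these genes were highest in pools 1 and 4.

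Promoter windows are printed for Pvalb and Acta1, the members with the highest SDs, because they share the division into pools 1 and 4 against 2 and 3. The windows run from 250 bases before to 50 bases after the RefSeq start (GRCm38.p6, minus strand for both), for Pvalb chr15:78206351-78206650, the window of its pair that holds a match to the MEF2 site, and for Acta1 chr8:123894726-123895025. Capitals mark the match to the MEF2 site in Pvalb and, in Acta1, the match to the CArG box, the binding motif of serum response factor, and then TATAAA.
Pvalb: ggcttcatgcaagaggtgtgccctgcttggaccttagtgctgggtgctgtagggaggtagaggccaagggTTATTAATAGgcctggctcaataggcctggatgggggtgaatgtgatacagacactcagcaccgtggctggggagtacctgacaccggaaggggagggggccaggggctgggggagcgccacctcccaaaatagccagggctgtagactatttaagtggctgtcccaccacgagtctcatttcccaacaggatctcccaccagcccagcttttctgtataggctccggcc
Acta1: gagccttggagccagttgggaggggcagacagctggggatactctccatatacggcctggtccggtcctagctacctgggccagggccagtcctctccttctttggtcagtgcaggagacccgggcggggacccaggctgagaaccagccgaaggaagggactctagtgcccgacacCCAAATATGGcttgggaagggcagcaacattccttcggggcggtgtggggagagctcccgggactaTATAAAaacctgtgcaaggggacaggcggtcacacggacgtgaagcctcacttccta
Of 14 member symbols on the muscle list, 12 matched, with 15 windows. On both strands, the CArG box was in 2 windows (13.3%, against 1.63% of 32851), the MEF2 site in 1 (6.67%, against 3.19%) and TATAAA, which a MEF2 site can contain, in 3 (20.0%, against 13.6%). CANNTG, the E-box, was in 14 (93.3%, against 72.3%) and is not in capitals. A match is a description of these letters and shows no binding.

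Blood cell genes lay in both patterns. On the red-cell list, 5 of 12 eligible genes were members and 9 were lowest in pool 3. Alas2, which starts haem synthesis in red-cell precursors, was at 12.03, 11.06, 10.49 and 11.93, against 11.69, 11.99, 10.37 and 12.10 in wild type. Slc4a1, the anion exchanger of the red-cell membrane, was at 9.32, 8.58, 7.65 and 9.05, and Bpgm, which sets the oxygen affinity of haemoglobin, at 10.19, 9.12, 8.99 and 9.86. Wild-type pool 3 was as low as pre-leukemic pool 3 for Alas2, so red-cell genes, like muscle genes, varied in both groups.

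Of 11 eligible neutrophil genes 6 were members, and 10 were lowest in pool 3. Median SD of the 6 was 0.726, and 0.195 over wild-type pools. Ngp, a neutrophil granule protein, was at 9.52, 8.81, 8.14 and 9.88, against 8.60 to 9.16 in wild type. S100a9, a calcium-binding protein that fills the neutrophil cytoplasm, was at 7.75, 6.94, 6.57 and 8.25, and its partner S100a8 at 8.76, 8.31, 8.04 and 9.56. S100a9 had an SD of 0.758, and 0.136 in wild type. Hp, the haemoglobin-binding haptoglobin, was at 8.35, 7.64, 6.92 and 8.55. On the platelet list, 3 of 6 eligible genes were members: Ppbp, a platelet chemokine, was at 10.36, 9.33, 8.48 and 10.45, Pf4, another, at 8.81, 7.98, 7.19 and 8.43, and Gp9, a subunit of the platelet von Willebrand receptor, at 8.40, 7.82, 7.09 and 8.12. Each was lowest in pool 3.

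Mature T-cell genes ran the other way. Of 36 eligible genes on the list 6 were members, all of them high in pool 3 alone, and 32 of the 36 were highest in pool 3, as were 40.4% of eligible clusters. The mean of the list was 9.56, 9.34, 9.95 and 9.38 in pre-leukemic pools 1 to 4, and 9.73 to 9.90 in wild type. Pool 3 thus lay just above the wild-type range, and the other 3 pools lay below it. Mature T cells were not alone in this. The interferon list mean was 8.67, 8.58, 8.93 and 8.51, against 8.79 to 8.97 in wild type. The means of the double-positive (10.51), regulatory and cytotoxic T-cell (8.77) and medullary epithelium (8.37) lists were also highest in pool 3. Gimap4 and Gimap6, GTPases on the mature T-cell list, were at 10.05, 9.70, 10.89 and 9.67 and at 9.76, 9.36, 10.63 and 9.50. Cd40lg, the helper T-cell ligand for CD40, was at 7.60, 7.21, 8.19 and 6.94, against 8.23, 8.06, 8.46 and 7.95 in wild type. Icos, a costimulator of activated T cells, was at 8.45, 7.80, 9.07 and 8.04, and Ccr7, the receptor that guides T cells into the medulla, at 10.33, 9.87, 10.87 and 9.76. For Cd40lg and Icos, pool 3 lay within the wild-type range.

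The 21 members high in pool 3 alone also held chemokines and 2 genes, Rgs1 and Slc7a11, from the list of immature, double-positive T cells. Of the 23 eligible genes on that list 16 were highest in pool 3, as were 40.4% of eligible clusters. Cd4, Cd8a and Rag2, on the same list, were not members. Ccl22, a chemokine of dendritic cells, was at 9.03, 8.63, 9.79 and 8.69. Cxcl9 and Cxcl11, interferon-induced chemokines that attract activated T cells, were at 8.29, 7.87, 9.07 and 8.02 and at 10.19, 10.06, 10.99 and 9.83. The low pools differed among themselves by less than 0.5, and pool 3 was above each. Other members of the same lists were lowest in pool 3. Rsad2, on the interferon list, was at 9.20, 8.05, 7.43 and 8.89. Retnla, on the macrophage and dendritic list, was at 10.14, 10.17, 8.90 and 10.60. Of the 5 macrophage and dendritic members, 3 were low in pool 3 alone and 2 high in pool 3 alone. Of the 3 interferon members, 2 were high in pool 3 alone. Over the whole interferon list, 21 of 25 eligible genes were highest in pool 3 and 2 were lowest there. Of the 26 eligible macrophage and dendritic genes, 10 were highest and 10 lowest in pool 3. Pool 3 was lowest for 21.1% of eligible clusters. Rgs1, a brake on chemokine receptor signals, was at 6.93, 6.57, 8.17 and 7.04, and Slc7a11, a cystine transporter, at 9.76, 9.40, 10.57 and 10.02. Akr1c18, a progesterone-inactivating enzyme, was at 8.12, 7.42, 9.14 and 8.18, with the highest SD of the 21, and Cd226, an activating receptor of T cells and natural killer cells, at 6.95, 6.50, 7.87 and 6.92. Gadd45b, a stress-induced gene, was at 8.25, 8.13, 9.01 and 7.83, against 8.39 to 8.56 in wild type.

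**Figure D4:**
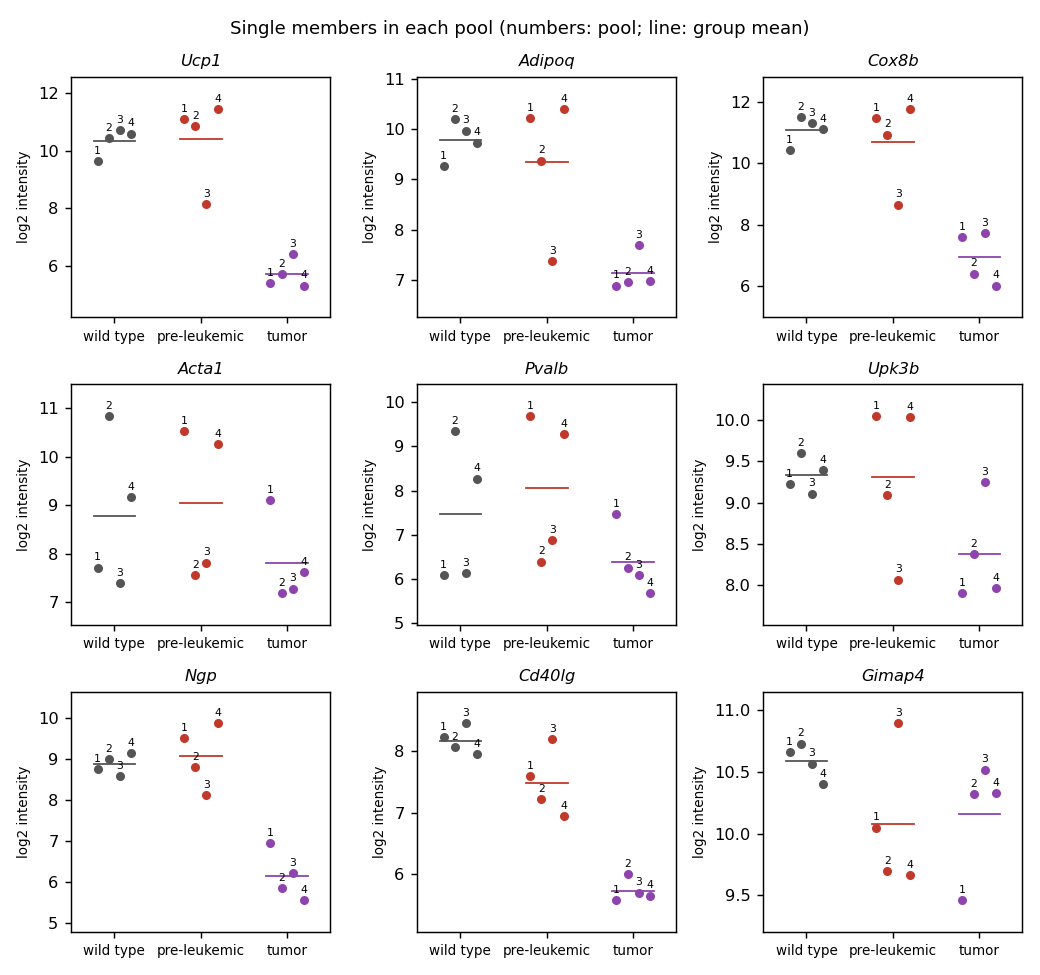
Panels show the log2 intensity of 9 members in the 4 pools of each group, with pool numbers and a line at the group mean. Ucp1, Adipoq, Cox8b, Upk3b and Ngp are lowest in pre-leukemic pool 3, Acta1 and Pvalb are high in pools 1 and 4, and Cd40lg and Gimap4 are highest in pool 3.

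Other divisions were small. In 11 members (3.67%, against 10.6% of eligible clusters) pool 2 alone was low. Among them were 3 of the ribosomal protein family: Rpl36 at 8.70, 7.29, 9.04 and 9.32, Rpl15 at 8.58, 7.79, 9.09 and 9.41, and Rps27l, a relative of a ribosomal protein induced by p53, at 9.64, 8.41, 10.01 and 9.49. Mef2d, a transcription factor of muscle and T cells, was at 7.31, 6.41, 7.77 and 8.08, and P2ry10b, a receptor of lymphocytes, at 7.86, 7.36, 8.69 and 8.31. Pool 2 was also the array with the narrowest interquartile range, and 6 members were olfactory receptor genes, of 27 eligible ones, whose 787 clusters had a median of 4.69 over the 12 arrays. In 6 members pool 4 alone was high, S100a8, Emcn, Palmd, Jchain and both clusters of Nnat, a protein of developing nerve. Jchain, which joins secreted antibodies, was at 7.83, 7.09, 7.62 and 8.43, and Hspb1, a small heat-shock protein, at 10.04, 8.87, 8.43 and 9.44 with pool 1 alone high. No member came from the lists of cortical epithelium (18 eligible), mitosis (25), DNA replication (39), ribosome biogenesis (23), Notch signalling (17), regulatory and cytotoxic T cells (18), smooth muscle (10), mast cells and eosinophils (3) or histones (3). Elsewhere, macrophage and dendritic genes gave 5 members of 26, interferon genes 3 of 25, B cells 2 of 15, immediate-early genes 2 of 34, heart genes 2 of 6 and double-positive T cells 2 of 23. The lists of double-negative T cells, medullary epithelium, cartilage and bone, and glucocorticoid and circadian genes gave 1 member each, of 21, 16, 7 and 22.

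Members on no list numbered 177, of which 93 were low in pool 3 alone, 45 were high in pools 1 and 4 and 8 were high in pool 3 alone. Rbp4, the retinol carrier that liver and fat secrete, was at 9.19, 8.76, 7.20 and 9.82, against 8.30, 8.69, 8.95 and 9.91 in wild type. Nid1, a basement membrane protein, was at 9.89, 9.0, 7.70 and 9.87, and Igfbp5, which binds insulin-like growth factors, at 10.97, 9.74, 8.95 and 10.90. Both were lowest in pool 3 and close to equal in pools 1 and 4. Fhl1, a LIM protein of muscle, was at 9.22, 7.96, 6.98 and 9.18, and Gpc3, a membrane-anchored heparan sulfate proteoglycan, at 9.44, 8.25, 7.36 and 9.32. Igfbp5 had a wild-type SD of 0.169, and the other 4 ranged from 0.331 to 0.688. Cyp2e1, an oxidase of liver and fat, varied more in wild type, at 7.44, 9.19, 7.84 and 10.21, than in the pre-leukemic pools, at 8.07, 7.19, 6.44 and 8.06.

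The same members were then read in the groups that the ranking did not use. Of the 166 low in pre-leukemic pool 3 alone, 123 (74.1%) were highest in wild-type pool 2, where 37.7% of eligible clusters were, and 114 (68.7%) were lowest in wild-type pool 1, against 17.3%. Of the 75 high in pools 1 and 4, 62 (82.7%) were highest in wild-type pool 2 and 45 (60.0%, against 31.5%) lowest in wild-type pool 3. Members of both divisions hence shared a high wild-type pool and differed in their low one. In tumors, pool 3 was the highest for 121 of the 166 (72.9%, against 20.8%) and for 48 of the 75. Among the 21 high in pre-leukemic pool 3, 15 (71.4%, against 29.7%) were lowest in wild-type pool 4. The labels do not say that pools with the same number in different groups share anything.

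Pre-leukemic and wild-type thymus were compared because the series' design pairs them, but the ranking used the pre-leukemic values, so the members' results are a description. By limma with Benjamini-Hochberg adjustment over 17829 clusters, no cluster was higher (0.0%) or lower (0.0%) in pre-leukemic thymus, members included. The smallest adjusted p was 0.573, and 0.764 among members. At an unadjusted p under 0.05 there were 1112 clusters (6.24%), 11 of them members. The median difference of members was -0.06 on the log2 scale, and of eligible clusters 0.02. Mcm4 differed by 0.09 ± 0.07 (SE, 4 pools a group, limma adjusted p = 0.782). Without pre-leukemic pool 3, 1 cluster was called higher, Fcna, a ficolin of macrophages, by 0.80 ± 0.06 (SE, limma adjusted p = 0.0339, and 0.764 with all pools). Fcna was at 8.79, 8.95, 8.15 and 8.87 in pre-leukemic and 8.06 to 8.09 in wild-type pools and was chosen after its values were seen.

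Tumors against wild type is a contrast that the ranking did not use. Of the 300 members, limma called 176 lower and 11 higher in tumors, while of all clusters 14.5% were lower and 16.2% higher, and of eligible clusters 19.3% and 22.0%. The members' median difference was -0.83, and that of eligible clusters 0.04. Among the called members, 124 fell and 5 rose by 2-fold or more. Members that changed by 2-fold without a call are left out, and eligible clusters were not counted at this cut. By division, 100 fell and 6 rose of the 166, 47 fell and 2 rose of the 75, and 17 fell and 0 rose of the 21, with medians of -0.78, -1.10 and -1.53. Genes that were high in pre-leukemic pool 3 and genes that were low there were thus both lower in tumors.

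Of the 42 eligible fat genes, 31 fell and 2 rose in tumors. Among the 31 fat members 26 fell and none rose, and all 7 brown fat members fell. Ucp1, at 5.38, 5.70, 6.39 and 5.30 in tumors, was lower by -4.66 ± 0.29 (SE, 4 pools a group, limma adjusted p = 1.15e-05), so no tumor pool reached any thymus pool. Cox8b differed by -4.17 ± 0.40 and Car3 by -4.12 ± 0.55. Matrix members fell in 16 of 26 and rose in 1. Fn1, at 10.13 to 10.63 in tumors, differed by -0.21 ± 0.16 and was not called (limma adjusted p = 0.359).

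Muscle genes, which had led the ranking, mostly did not pass. Of 15 members 1 fell, Myl1, by -2.60 ± 0.82 (SE, limma adjusted p = 0.0398), and the median of the 15 was -0.46. Acta1 was at 9.11, 7.20, 7.28 and 7.62 in tumors and differed by -0.98 ± 0.74 (limma adjusted p = 0.352), within a spread of 1.57 between wild-type pools. All 5 red-cell members fell, Alas2 by -3.96 ± 0.35, as did 4 of 6 neutrophil members and 5 of 6 mature T-cell members. Cd40lg was at 5.57 to 5.99 in tumors and differed by -2.45 ± 0.13 (limma adjusted p = 5.53e-06). Gimap4 differed by -0.43 ± 0.21 and was the member of that list that did not pass. Cxcl11 differed by -4.52 ± 0.33. Of the 177 members on no list 95 fell and 8 rose, and Igfbp5 differed by -3.28 ± 0.34.

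The rises were few. Cd5l, a secreted protein of tissue macrophages, was at 7.04, 7.47, 6.21 and 7.44 in pre-leukemic, 5.87 to 6.27 in wild-type and 9.28, 8.49, 9.83 and 9.44 in tumor pools, a tumor difference of 3.22 ± 0.25 (SE, limma adjusted p = 3.71e-05). Scara3, a scavenger receptor, rose by 2.06 ± 0.18, Spsb4, an adaptor of a ubiquitin ligase, by 1.47 ± 0.10, and Ccl9, a macrophage chemokine, by 1.36 ± 0.27. Mpzl2, an adhesion protein of thymic epithelium, was at 9.29, 10.15, 11.06 and 11.39 in tumors and rose by 1.36 ± 0.39 (limma adjusted p = 0.0278). That call was lost without tumor pool 3 (1.16), without tumor pool 4 (1.05) or without any wild-type pool (1.31 to 1.39). Mcm4 rose by 0.30 ± 0.08 (limma adjusted p = 0.0183), a call lost without wild-type pool 2 (0.30) or 3 (0.28).

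**Figure D5:**
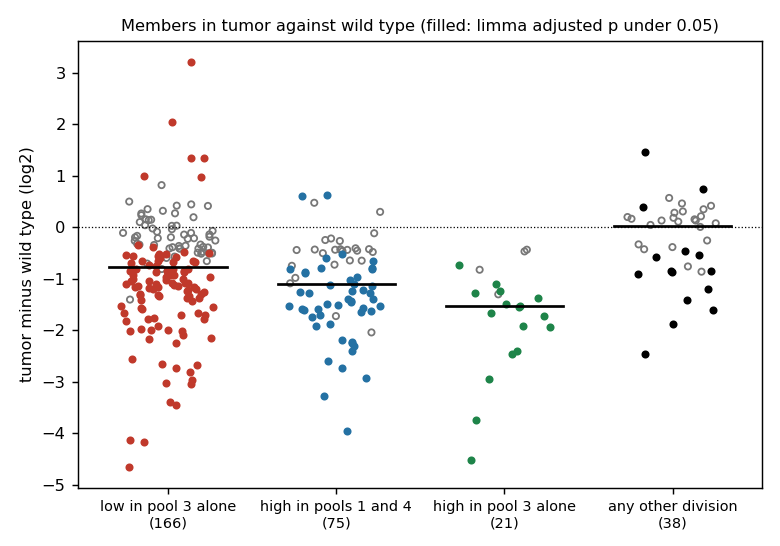
Each point is a member, placed by its division of the pre-leukemic pools, with its tumor minus wild-type log2 difference on the vertical axis. Filled points have a limma adjusted p under 0.05, open points do not, and black lines are medians, at -0.78, -1.10 and -1.53 for the first 3 divisions.

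Membership depended on pre-leukemic pool 3. Without it, 134 of the 300 remained among the 300 of highest SD over the other 3 pools, and the fat list held 10 (of 31), the fibroblast list 11 (of 26), the red-cell list 3 (of 5) and the mature T-cell list 0 (of 6). Skeletal muscle held 13 to 17 members whichever pool was left out. The number of fat, matrix and T-cell members thus depended on pool 3 more than the number of muscle members did. Without pool 1, the red-cell list held 2.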

How the data were processed

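Thymus and tumor RNA was hybridised to 12 Affymetrix mouse exon arrays. The authors deposited a linear, normalized intensity for each transcript cluster, by a method not stated in the sources used here. Array medians lay between 186 and 210. Each intensity was log2-transformed with no pseudocount. A further 24 columns in other matrices have pool names that fit no label and were not used.

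Symbols came from the platform annotation (1370 clusters have several, 841 none). Members and the 29 gene lists were chosen with earlier results of these data known. The planned rule named Mcm4, the 15 members of highest SD, the leading members of each list and of each division with 10 or more members, the ranks at the threshold and the largest tumor changes. Of the genes that it named, Car2, Fech and Ebf1 are not described here. Other named members are examples chosen after their values were seen.

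Groups were compared on their 8 arrays with limma 3.58.1 in R 4.3.3, two-sided, over all 17829 clusters, with calls made at an adjusted p (Benjamini-Hochberg) under 0.05. Tests were checked on simulated data in which each cluster varied independently. That check does not cover variation that many clusters share between pools, as the members did. Arrays have no read depth, so the number of arrays limits the precision. Labels call the pools biological replicates. No detection calls were used. Promoters are RefSeq's (GRCm38.p6). Alternatives were other mean minimums, ranking by median absolute deviation, quantile normalization, a replicate block, all groups in 1 fit, the posterior criterion and leaving out each pool.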

Additional observations from a re-analysis of the deposited data

Results flagged for a closer look

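Among the named genes and the 29 lists, each pool was set against the other 3 of its group, in 294 tests, and a pool was noted where its gap to the nearest took up more of the group's range than Dixon's limit for 4 values allows. Chance would note about 5% of groups if the tests were independent, and 15 of the 294 were noted. Of these, 8 were genes in tumors, 4 were genes in wild type, and 1 list was noted in each group. Named genes are also on the lists, so the tests are not independent and the count cannot be set against chance. In tumor pool 3, Adipoq stood high at 7.69, Dpt at 8.62, Emcn at 8.10 and Cxcl9 at 8.94, Mef2d stood low at 7.25, and the fibroblast and matrix list stood high with a mean of 8.66. In tumor pool 1, the muscle genes Tnnt3 at 9.11 and Atp2a1 at 8.81 stood high and Ccl22 at 6.03 stood low. In wild type, Cxcl9 was low in pool 4 at 8.39, Mef2d high in pool 1 at 8.48, Elovl6 high in pool 3 at 9.44, Ackr3 low in pool 1 at 7.24, and the immediate-early list high in pool 2 with a mean of 8.95. In pre-leukemic pool 3 the endothelium list was low with a mean of 7.51.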

How the results depend on the processing

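With a minimum mean of 8 in place of 7, 181 of the 300 stayed among the 300 of highest SD, and leaving out each pre-leukemic pool kept 134 to 264. Members high in pool 3 alone numbered 44 with that minimum and 5 when ranked by median absolute deviation, against 21. The neutrophil list then held 3 members with the minimum of 8, and the mature T-cell list 2 with the other ranking. Members low in pool 3 alone ran from 112 to 169 and those high in pools 1 and 4 from 58 to 87 over 6 alternatives. Divisions were not recomputed with a pool left out, since 3 pools remain. Pre-leukemic against wild-type calls over all clusters were 0 to 1 higher with a pool left out, and 0 under the other alternatives.

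Under the posterior criterion of 95%, computed with limma's B, the tumor calls numbered 351 higher and 535 lower over all clusters, and 3 higher and 53 lower among members, and Mcm4 (0.30), Car3 (-4.12), Mpzl2 (1.36) and Ccl9 (1.36) were no longer called. The other alternatives gave 150 to 198 members lower and 8 to 14 higher. The labels do not state whether pool numbers pair the samples. Deviations of same-numbered pre-leukemic and wild-type pools correlated at -0.554 to -0.039, and of tumor and wild-type pools at -0.396 to 0.148. Of the pre-leukemic pools 0 correlated best with their own wild-type number, and of the tumor pools 1. With the replicate block, tumor calls were 2095 higher and 2115 lower, 10 and 173 among members, pre-leukemic calls stayed at 0, and the Mcm4 call was lost (0.30). The cause of these changes was not tested. With 4 arrays a group, weak genes have no background estimate here, so their differences may be understated.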
